A study of Solanum lycopersicum with 8 samples.

Results

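The difference of the tunicamycin effect between 2 times was measured in tomato (Solanum lycopersicum) leaves, as (tunicamycin minus control at 6 h) minus (tunicamycin minus control at 2 h) on the log2 scale. A value above 0 means that a transcript stood higher relative to control at 6 h than at 2 h. Each gene was represented by its transcript with the highest total count, which gave 29081 genes on the deposited table of 45845 transcripts. Of these, 20272 genes had enough counts to be tested, within a fit to 34483 transcripts. The rule for the members uses counts, and the contrast and the gene lists below were chosen with earlier results of these data known.

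The 4 groups were control leaves at 2 h, tunicamycin-treated leaves at 2 h, control leaves at 6 h and tunicamycin-treated leaves at 6 h, with 2 biological replicates in each and 8 libraries in all. The labels give the tissue as leaf, the RNA as total RNA extracted with Trizol, and the library kit as a directional one. The sources used here do not give the cultivar, plant age, tunicamycin dose, the way it was applied, the content of the control treatment or the hour of day. Whether the replicates came from separate plants is not stated beyond the word biological. The p-values rest on the spread between the 2 libraries of each group, with each variance drawn towards those of other transcripts.

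Tunicamycin is an antibiotic that blocks the first step of N-linked glycosylation, the attachment of sugar chains to proteins in the endoplasmic reticulum (ER). Unglycosylated proteins fold poorly and set off the unfolded protein response, in which the kinase and endoribonuclease IRE1 splices the mRNA of the factor bZIP60 and the membrane-bound factor bZIP17 is released by proteolysis. In plants the response is known for raising chaperones such as BiP, foldases and degradation factors, and a stress that persists is known to bring in autophagy and cell death. A treatment by time contrast asks of each transcript whether its distance from control differed between the early and the late harvest, apart from any change that control leaves also made between the times.

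Library totals lay between 4689769 and 122784850 counts. Every group was made of a deeper and a shallower library, 5.49 to 9.98 times apart, the deeper being replicate 2 in the control groups and replicate 1 in the tunicamycin groups. Ribosomal RNA rows took 0.0775% to 0.650% of the counts, except 2.53% in tunicamycin 6 h replicate 2. Because each depth subset holds 1 library of every group, the difference was also computed within the 4 deeper and within the 4 shallower libraries, which have no library in common, and both values are given beside the pooled one where they bear on it. Levels are in CPM, counts put on one scale between libraries, with replicate 1 before replicate 2, and every effect, difference and change between the times is on the log2 scale.

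No gene passed the test of the difference. With edgeR's quasi-likelihood test and Benjamini-Hochberg adjustment over all transcripts tested, 0 of 20272 genes (0%) had an adjusted p under 0.05, and the smallest adjusted p was 0.99995. At an unadjusted p under 0.05 there were 580 genes (2.86%), of which 291 (1.44%) had a difference above 0 and 289 (1.43%) below 0. DESeq2 and limma-voom also called 0 genes, with 662 and 814 genes at an unadjusted p under 0.05. Each of these counts is under the share of 0.05 of the 20272 genes expected at that cut if no gene differed. The verbs of change below are therefore kept for calls in the single comparisons that make up the difference, and the differences themselves are given as values with their errors.

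The error of the difference set what could be seen. The median standard error was 0.616 on the log2 scale, against 0.442 for the tunicamycin effect at 2 h and 0.431 for that at 6 h, since the difference adds the errors of 4 group means. Among the 15433 genes with a mean log2 CPM of 1 or more, the median distance from the estimate to the end of its 95% interval was 1.19. The interval lay wholly between -1 and 1 for 346 of them, and between -2 and 2 for 11617. A change of the effect by 1 on the log2 scale was therefore not resolved for most expressed genes, and the absence of calls does not show that the effect was the same at both times. In 1453 of these genes the estimated difference was beyond 1 in either direction.

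The libraries themselves were compared as pairs. Each time allows 4 differences between a tunicamycin and a control library. In 1170 genes (5.77%) all 4 differences at 6 h lay above all 4 at 2 h, and in 982 genes (4.84%) all lay below, 10.6% in all. In 302 genes every difference was below 0 at 2 h and above 0 at 6 h, and in 187 genes the order was the opposite, together 2.41%.

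The 4 component contrasts of the same fit did give calls at an adjusted p under 0.05. At 2 h 11 genes (0.0543%) were called, 1 higher and 10 lower in tunicamycin leaves, and at 6 h 79 genes (0.39%), 7 higher and 72 lower. Between 2 h and 6 h, 62 genes (0.306%) were called in control leaves and 155 genes (0.765%) in tunicamycin leaves. These contrasts have libraries in common with each other and with the difference, and an effect called at one time and not at the other is not shown to differ between them.

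Described genes with a mean log2 CPM of 1 or more and the same sign in both depth subsets were ranked by p. The 12 with the smallest p for a difference above 0 held regulators, wall and sterol enzymes, and genes of defence and redox chemistry. Their p ran from 5.02e-04 to 0.00362 and their differences from 1.88 to 3.29. As they were picked for these values, the values are a description. In 7 of the 12 the tunicamycin effect at 2 h was below -1, in 6 the effect at 6 h was above 1, and in 11 the effects at the 2 times had opposite signs.

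Transcription factors and growth-related genes formed the largest part of these. LBD40 (LOC101257056) is of the LOB domain family of plant transcription factors. At 2 h it was measured at 92.6 and 106 CPM in control and 52.8 and 48.7 CPM in tunicamycin leaves. At 6 h it had 26.3 and 14.6 CPM in control and 39.4 and 62.1 CPM in tunicamycin leaves. Its tunicamycin libraries lay below both control libraries at 2 h and above both at 6 h. The difference was 2.28 ± 0.51 (SE; 95% interval 1.19 to 3.38), with 2.43 in the deeper and 2.16 in the shallower libraries. In control leaves its level fell by 2.29 on the log2 scale between the times (adjusted p = 0.0161), while the corresponding change in tunicamycin leaves was -0.00. SAUR78 (LOC101268293), of the small auxin up RNA family whose members act in cell expansion, had 30.3 and 20.7 CPM in control and 43.1 and 18.3 CPM in tunicamycin leaves at 2 h, and 4.33 and 2.55 CPM in control and 32.5 and 15.6 CPM in tunicamycin leaves at 6 h. Its groups overlapped at 2 h, and at 6 h both tunicamycin libraries were several times above both control libraries. Its difference was 2.55 ± 0.66 (SE; 95% interval 1.14 to 3.95), and the subsets were nearly alike at 2.596 and 2.56. SAUR78 was higher in tunicamycin than in control leaves at 6 h by 2.84 (adjusted p = 0.0295), and its control level fell by 2.91 from 2 h to 6 h (adjusted p = 0.0219).

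The basic helix-loop-helix genes followed the same order. The bHLH87-like gene (LOC101262125) had 4.88 and 2.28 CPM in control and 2.46 and 3.86 CPM in tunicamycin leaves at 2 h, and 2.52 and 1.26 CPM in control and 16.7 and 10.9 CPM in tunicamycin leaves at 6 h. Its libraries overlapped at 2 h and stood apart at 6 h, where it was higher in tunicamycin leaves by 2.91 (adjusted p = 0.0375); the difference was 3.05 ± 0.76 (SE; 95% interval 1.43 to 4.67). HBI1 (LOC101266900), which in Arabidopsis promotes cell elongation and links growth with immunity, had 12.2 and 9.17 CPM in control and 9.25 and 11.9 CPM in tunicamycin leaves at 2 h, and 4.13 and 6.28 CPM in control and 20.5 and 17.9 CPM in tunicamycin leaves at 6 h. It too overlapped at 2 h, where the effect was -0.01, and was higher at 6 h by 1.87 (adjusted p = 0.0471). Its difference was 1.88 ± 0.52 (SE; 95% interval 0.78 to 2.99).

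In other regulators the 2 h libraries carried the difference. ATHB-15 (LOC101251205), a class III homeobox-leucine zipper factor of vascular and meristem development in Arabidopsis, had 14.2 and 14.8 CPM in control and 4.37 and 3.86 CPM in tunicamycin leaves at 2 h, and 13.2 and 9.899 CPM in control and 11.9 and 13.4 CPM in tunicamycin leaves at 6 h. Both tunicamycin libraries at 2 h held the lowest levels of the gene, and at 6 h the groups overlapped. The difference was 1.94 ± 0.49 (SE; 95% interval 0.88 to 2.998) and came to 2.01 in the deeper and 1.89 in the shallower libraries. The GRF1-like gene (LOC101252681), of the growth-regulating factors that promote cell proliferation in leaves, had 41.9 and 22.5 CPM in control and 9.58 and 11.6 CPM in tunicamycin leaves at 2 h, and 45.8 and 20.1 CPM in control and 40.2 and 50.1 CPM in tunicamycin leaves at 6 h. Its level in tunicamycin leaves rose by 2.103 between the times (adjusted p = 0.0382), and the difference was 2.06 ± 0.58 (SE; 95% interval 0.82 to 3.297). The control libraries at 6 h spanned much of its range, with the deeper one the lower.

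Enzymes of the wall and of sterols were also low in tunicamycin leaves at 2 h. Glucomannan 4-beta-mannosyltransferase 2 (LOC101245618), which builds the backbone of a hemicellulose, had 18.9 and 23.9 CPM in control and 6.64 and 2.25 CPM in tunicamycin leaves at 2 h, and 14.99 and 6.84 CPM in control and 9.86 and 15.7 CPM in tunicamycin leaves at 6 h. The delta(24)-sterol reductase-like gene (LOC101244831), whose Arabidopsis relative serves sterol and brassinosteroid synthesis, had 11.8 and 12.2 CPM in control and 3.85 and 4.18 CPM in tunicamycin leaves at 2 h, and 16.2 and 6.19 CPM in control and 14.03 and 18.7 CPM in tunicamycin leaves at 6 h. At 2 h both tunicamycin libraries were below both control libraries in each of these genes, and at 6 h the groups overlapped. The differences were 2.41 ± 0.69 (SE; 95% interval 0.94 to 3.88) and 2.14 ± 0.62 (SE; 95% interval 0.82 to 3.47). Pectinesterase inhibitor 4 (LOC101247488), which restrains the demethylation of wall pectin, had 13.8 and 19.5 CPM in control and 12.2 and 12.9 CPM in tunicamycin leaves at 2 h, and 19.6 and 6.36 CPM in control and 45.2 and 42.1 CPM in tunicamycin leaves at 6 h. Here the 6 h libraries stood apart, and the difference was 2.201 ± 0.61 (SE; 95% interval 0.90 to 3.504).

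The remaining genes of this set belong to defence and detoxification. Aspartyl protease AED3 (LOC101248557), an apoplastic protease described in Arabidopsis immunity, had 64.3 and 58.3 CPM in control and 8.04 and 13.8 CPM in tunicamycin leaves at 2 h, and 162 and 33.7 CPM in control and 150.3 and 185 CPM in tunicamycin leaves at 6 h. Its tunicamycin level rose by 3.97 between 2 h and 6 h (adjusted p = 0.0159), and the difference was 3.29 ± 0.81 (SE; 95% interval 1.52 to 5.06). The 2 control libraries at 6 h were far apart, and the subsets gave 5.01 in the deeper and 2.403 in the shallower libraries. BI-GST/GPX, a tomato glutathione S-transferase with peroxidase activity that was isolated as a suppressor of Bax-induced death in yeast, had 58.6 and 70.4 CPM in control and 16.7 and 19.5 CPM in tunicamycin leaves at 2 h, and 42.3 and 19.7 CPM in control and 44.6 and 26.97 CPM in tunicamycin leaves at 6 h. It was low in both tunicamycin libraries at 2 h and overlapped at 6 h, with a difference of 2.06 ± 0.55 (SE; 95% interval 0.89 to 3.23). The 2-hydroxyisoflavanone dehydratase-like gene (LOC101249123), of the plant carboxylesterase family, had 4.88 and 3.04 CPM in control and 1.32 and 1.93 CPM in tunicamycin leaves at 2 h, and 2.62 and 3.93 CPM in control and 8.09 and 9.56 CPM in tunicamycin leaves at 6 h. Its tunicamycin libraries were below control at 2 h and above it at 6 h, its tunicamycin level rose by 2.499 between the times (adjusted p = 0.0463), and its difference was 2.71 ± 0.71 (SE; 95% interval 1.196 to 4.23).

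**Figure D1:**
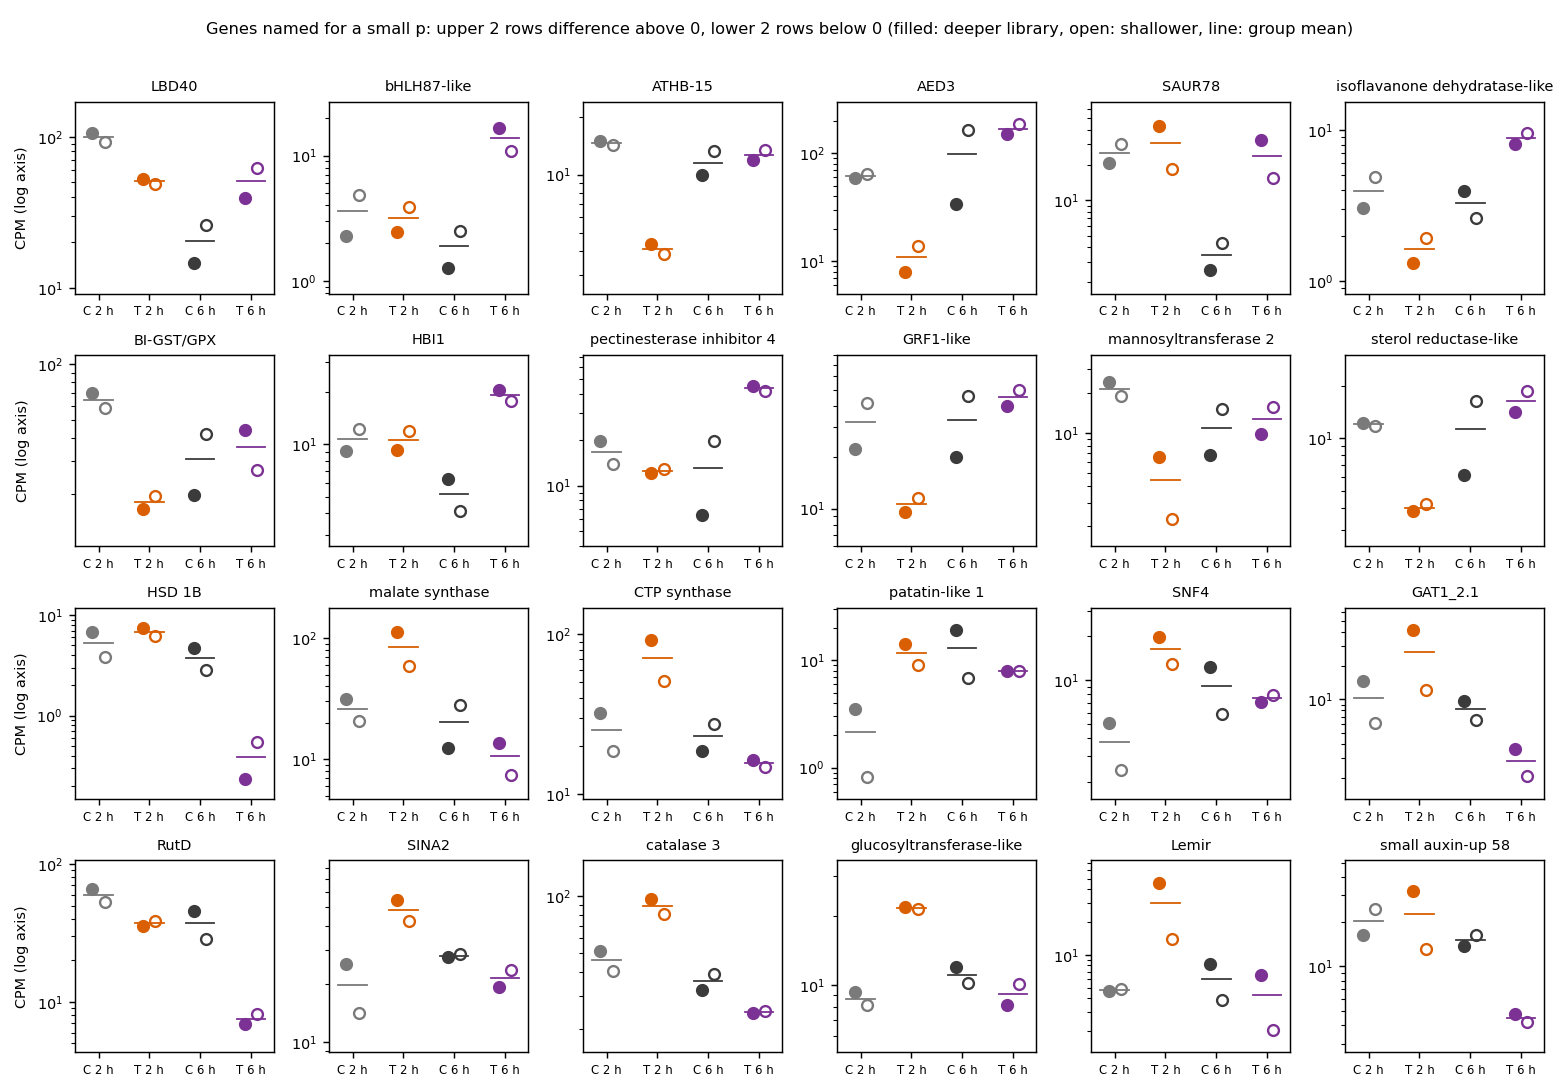
CPM (log axis) of the 24 genes named for a small p in each of the 8 libraries; C and T stand for control and tunicamycin leaves, filled points for the deeper and open points for the shallower library of a group, and lines for group means. In the upper 2 rows the tunicamycin leaves are low against control at 2 h, high against control at 6 h, or both, as for LBD40 with 52.8 and 48.7 CPM against 92.6 and 106 at 2 h; in the lower 2 rows the order is the opposite.

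The 12 genes with the smallest p for a difference below 0, by the same rule, held enzymes of reserve and nitrogen turnover, protein degradation and redox chemistry. Their p ran from 3.16e-04 to 0.00456 and their differences from -3.80 to -1.49, again as a description. The effect at 2 h was above 1 in 8 of the 12, the effect at 6 h below -1 in 4, and in 11 the effects at the 2 times had opposite signs. In tunicamycin leaves 7 of the 12 fell between 2 h and 6 h at an adjusted p under 0.05, and in control leaves 0 of them were called. Over all 20272 genes, 136 fell in tunicamycin leaves and 61 in control leaves. The difference contains both changes, so these counts follow in part from the choice of the genes.

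Reserve and fuel enzymes come first. Glyoxysomal malate synthase (LOC101267103), an enzyme of the glyoxylate cycle that turns fat-derived carbon into sugar precursors, had 20.8 and 31.2 CPM in control and 111 and 58.4 CPM in tunicamycin leaves at 2 h, and 28.3 and 12.4 CPM in control and 13.6 and 7.51 CPM in tunicamycin leaves at 6 h. Both tunicamycin libraries at 2 h were the highest of the 8. Its level in tunicamycin leaves fell by 2.99 between the times (adjusted p = 0.00959), and the difference was -2.62 ± 0.64 (SE; 95% interval -3.99 to -1.24). Patatin-like protein 1 (LOC101264485), a lipid acyl hydrolase, had 0.814 and 3.51 CPM in control and 14.2 and 9.005 CPM in tunicamycin leaves at 2 h, and 6.84 and 19.2 CPM in control and 7.99 and 7.92 CPM in tunicamycin leaves at 6 h. The groups stood apart at 2 h and overlapped at 6 h, where the control libraries were themselves wide apart; the difference was -2.95 ± 0.79 (SE; 95% interval -4.65 to -1.25). SNF4, a regulatory subunit of the SnRK1 kinase that senses low energy, had 2.44 and 5.11 CPM in control and 19.7 and 12.9 CPM in tunicamycin leaves at 2 h, and 5.84 and 12.4 CPM in control and 7.07 and 7.92 CPM in tunicamycin leaves at 6 h. It was likewise higher in both tunicamycin libraries than in both control libraries at 2 h only, and its difference was -2.33 ± 0.65 (SE; 95% interval -3.71 to -0.94), with -2.74 in the deeper and -1.94 in the shallower libraries.

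Nucleotide and nitrogen metabolism gave 3 further genes. CTP synthase (LOC101257698), which makes cytidine nucleotides, had 18.5 and 32.2 CPM in control and 91.5 and 50.8 CPM in tunicamycin leaves at 2 h, and 27.4 and 18.6 CPM in control and 16.4 and 14.9 CPM in tunicamycin leaves at 6 h. It lay above control at 2 h and below control at 6 h in every pair of libraries, with a difference of -2.03 ± 0.53 (SE; 95% interval -3.16 to -0.89). Its tunicamycin level fell by 2.19 between the times (adjusted p = 0.01798). The glutamine amidotransferase GAT1_2.1 (LOC101261981) had 6.103 and 14.7 CPM in control and 41.4 and 12.2 CPM in tunicamycin leaves at 2 h, and 6.59 and 9.78 CPM in control and 3.63 and 2.05 CPM in tunicamycin leaves at 6 h. Its highest value by far was in the deeper tunicamycin library at 2 h, the other one lying within the control range, and the difference was -2.83 ± 0.79 (SE; 95% interval -4.53 to -1.13). The gene described as aminoacrylate hydrolase RutD (LOC101261000), after a bacterial enzyme of pyrimidine breakdown, had 52.9 and 66.5 CPM in control and 35.4 and 38.9 CPM in tunicamycin leaves at 2 h, and 28.5 and 45.9 CPM in control and 6.92 and 8.19 CPM in tunicamycin leaves at 6 h. It was below control at both times, and at 6 h by -2.31 (adjusted p = 0.0124), which left a difference of -1.62 ± 0.46 (SE; 95% interval -2.61 to -0.63).

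The gene with the smallest p of all 20272, 3.16e-04, was 11-beta-hydroxysteroid dehydrogenase 1B (LOC101264635), of a short-chain dehydrogenase family that in seeds includes oil body proteins. It was measured at 3.87 and 6.82 CPM in control and 7.43 and 6.27 CPM in tunicamycin leaves at 2 h, and 2.82 and 4.72 CPM in control and 0.235 and 0.546 CPM in tunicamycin leaves at 6 h. At 2 h the groups overlapped, and at 6 h both tunicamycin libraries were under 1 CPM. It was lower than control at 6 h by 3.47 on the log2 scale (adjusted p = 0.0343), and fell by 4.33 in tunicamycin leaves between the times (adjusted p = 0.00507). The difference was -3.800 ± 0.81 (SE; 95% interval -5.53 to -2.07), -4.22 in the deeper and -2.97 in the shallower libraries.

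Protein degradation and redox genes showed small errors. The E3 ubiquitin ligase SINA2 (LOC101253831) had 14.2 and 25.5 CPM in control and 54.4 and 42.1 CPM in tunicamycin leaves at 2 h, and 28.5 and 27.7 CPM in control and 19.2 and 23.8 CPM in tunicamycin leaves at 6 h. Catalase isozyme 3 (LOC101259333), which breaks down hydrogen peroxide in peroxisomes, had 40.3 and 51.6 CPM in control and 96.9 and 80.6 CPM in tunicamycin leaves at 2 h, and 39.2 and 32.1 CPM in control and 24.1 and 24.7 CPM in tunicamycin leaves at 6 h. Each was above control at 2 h and below control at 6 h in every pair of libraries. The differences were -1.65 ± 0.47 (SE; 95% interval -2.66 to -0.64) and -1.49 ± 0.44 (SE; 95% interval -2.43 to -0.55), and the subsets of the catalase difference were -1.32 and -1.66. The 7-deoxyloganetic acid glucosyltransferase-like gene (LOC101258806), of the family of sugar transferases to small molecules, behaved in the same order with 8.14 and 9.27 CPM in control and 21.9 and 21.4 CPM in tunicamycin leaves at 2 h, and 10.2 and 11.9 CPM in control and 8.13 and 10.1 CPM in tunicamycin leaves at 6 h, with a difference of -1.59 ± 0.47 (SE; 95% interval -2.59 to -0.59).

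The set ends with a Kunitz inhibitor and an auxin-related gene. Lemir, a miraculin of the Kunitz inhibitor family, had 4.88 and 4.605 CPM in control and 45.8 and 13.8 CPM in tunicamycin leaves at 2 h, and 3.82 and 8.19 CPM in control and 6.48 and 2.05 CPM in tunicamycin leaves at 6 h. Both tunicamycin libraries at 2 h were above all others, though several-fold from each other, and the difference was -3.14 ± 0.89 (SE; 95% interval -5.09 to -1.19). Small auxin-up protein 58 (LOC101055583) had 24.2 and 16.2 CPM in control and 32.3 and 13.02 CPM in tunicamycin leaves at 2 h, and 16.2 and 13.7 CPM in control and 4.75 and 4.23 CPM in tunicamycin leaves at 6 h. Its groups overlapped at 2 h, and at 6 h both tunicamycin libraries were the lowest of the 8. Its tunicamycin level fell by 2.35 between the times (adjusted p = 0.02095), and the difference was -1.93 ± 0.58 (SE; 95% interval -3.16 to -0.70), opposite in sign to that of SAUR78.

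**Figure D2:**
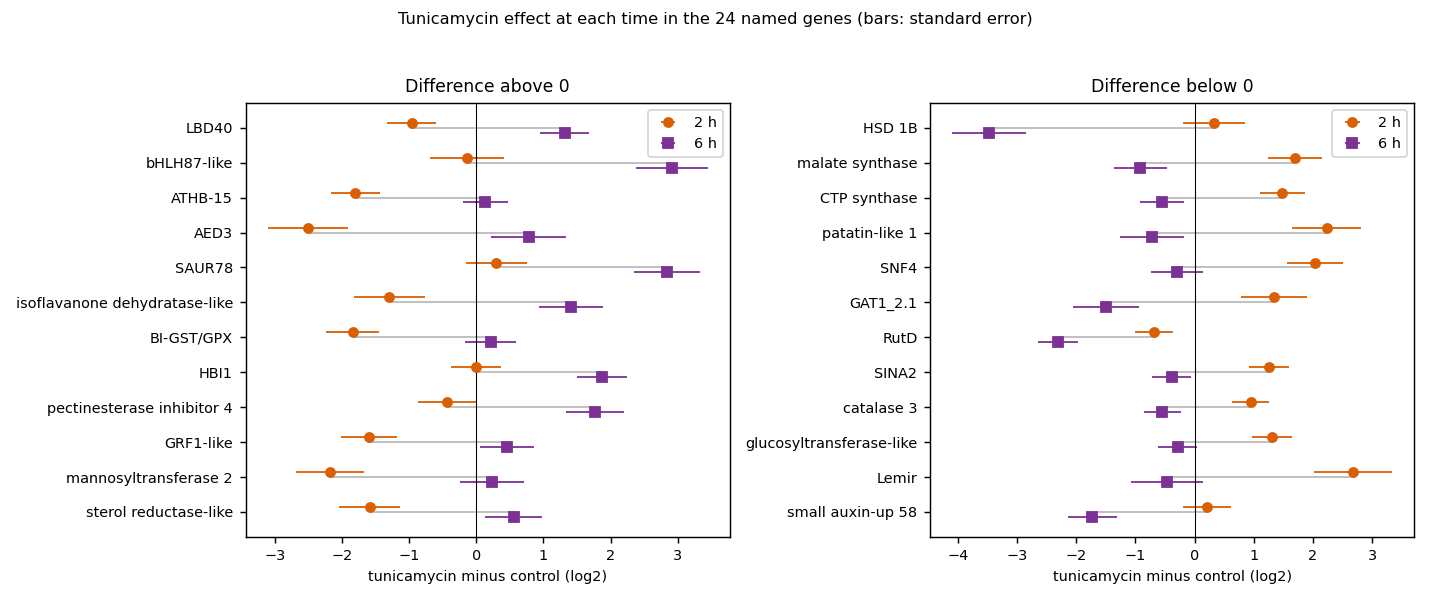
Tunicamycin effect (log2, tunicamycin minus control) at 2 h (circles) and at 6 h (squares) in the 24 named genes, with standard errors as bars; the length of the grey line is the difference between the times. Genes on the left have the 6 h effect to the right of the 2 h effect, from -0.97 to 1.31 in LBD40, and those on the right the reverse, from 0.33 to -3.47 in 11-beta-hydroxysteroid dehydrogenase 1B (HSD 1B).

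The genes of ER protein folding, the textbook targets of tunicamycin, had mostly small positive differences with wide errors. Of 16 ER lumen chaperones deposited, 15 were tested, 0 were called or had an unadjusted p under 0.05, and 14 had a difference above 0. Their median difference was 0.28, beside -0.00 for all genes tested, of which 49.97% were above 0. The medians of the effects were -0.16 at 2 h and 0.15 at 6 h. The subsets went apart, with a median of 0.83 in the deeper and -0.12 in the shallower libraries. The summed level of the 15 genes lay between 1249 and 1616 CPM in 7 libraries and was 887 CPM in control 6 h replicate 2, the deeper library of that group. With that library left out the differences of calnexin CNX61.0, P58IPK and endoplasmin were below 0. Leaving out each library in turn gave list medians from 0.13 (without tunicamycin 6 h replicate 1) to 0.67 (without control 6 h replicate 1).

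BiP itself, the Hsp70 of the ER lumen that binds unfolded chains, was listed as BiP/grp78 with 59.6 and 57.98 CPM in control and 34.3 and 36.7 CPM in tunicamycin leaves at 2 h, and 66.2 and 24.8 CPM in control and 59.2 and 48.8 CPM in tunicamycin leaves at 6 h. Both tunicamycin libraries were below both control libraries at 2 h, and at 6 h they lay between the control libraries, which were several-fold apart. The difference was 0.98 ± 0.56 (SE; 95% interval -0.21 to 2.18), with an unadjusted p of 0.1001 and 2.01 in the deeper and 0.26 in the shallower libraries. A second BiP gene, luminal-binding protein 5 (LOC101263797), had 103 and 109 CPM in control and 89.7 and 114 CPM in tunicamycin leaves at 2 h, and 103 and 52.2 CPM in control and 134 and 100.3 CPM in tunicamycin leaves at 6 h. Its libraries overlapped at 2 h, the low value being again that of control 6 h replicate 2, and the difference was 0.65 ± 0.54 (SE; 95% interval -0.50 to 1.802).

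The other chaperones gave values closer to 0, except the calreticulin-3-like gene (LOC101262304). Its difference was 2.68 ± 2.24 (SE, 95% interval -2.73 to 8.08), with 5.45 in the deeper and -3.50 in the shallower libraries. Endoplasmin (LOC101265819), the Hsp90 of the ER, had 306 and 342 CPM in control and 234 and 283 CPM in tunicamycin leaves at 2 h, and 332 and 159 CPM in control and 253 and 223 CPM in tunicamycin leaves at 6 h, with a difference of 0.28 ± 0.58 (SE; 95% interval -0.96 to 1.53). Calreticulin (LOC101246093) and calnexin (CNX61.0), lectins that hold glycoproteins while they fold, had differences of 0.44 ± 0.55 (SE; 95% interval -0.73 to 1.61) and 0.02 ± 0.60 (SE; 95% interval -1.27 to 1.31). Calnexin had 440.2 and 446 CPM in control and 358 and 554 CPM in tunicamycin leaves at 2 h, and 418 and 215 CPM in control and 308 and 353 CPM in tunicamycin leaves at 6 h. Calreticulin-3 (LOC101248677), a plant-specific form, had a difference of 0.47 ± 0.45 (SE; 95% interval -0.48 to 1.42) and 0.54 in the deeper and 0.41 in the shallower libraries. P58IPK (LOC543872), a J-domain partner of BiP, had 0.21 ± 0.53 (SE; 95% interval -0.93 to 1.34), and the SDF2-like protein (LOC101245041), which works with an ER J-domain protein, had -0.06 ± 0.43 (SE; 95% interval -0.97 to 0.85), the single value of the 15 below 0. Every interval named in this paragraph included 0.

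**Figure D3:**
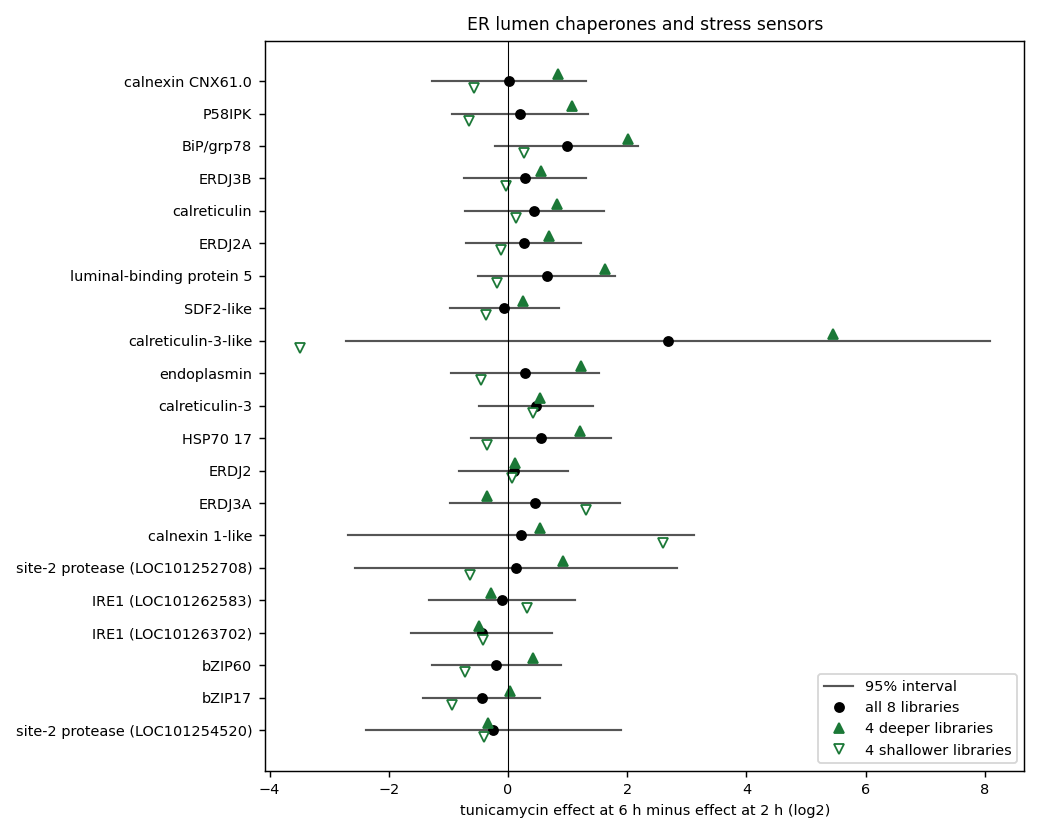
Tunicamycin effect at 6 h minus that at 2 h (log2) for the 15 ER lumen chaperones and 6 sensors or factors of the unfolded protein response, chosen for their role: black points are values from all 8 libraries with 95% intervals, triangles the values of the 4 deeper and of the 4 shallower libraries. All intervals cross 0, and in most chaperones the deeper subset lies to the right of the shallower, as for BiP/grp78 at 2.01 and 0.26.

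Among the foldases, 14 of 15 protein disulfide isomerases and ER oxidoreductins were tested and 12 had a difference above 0, with a median of 0.32, which without control 6 h replicate 2 was 0.04. A single member had an unadjusted p under 0.05. It was the protein disulfide-isomerase LOC101244079, with 1.22 and 1.14 CPM in control and 0.879 and 0.322 CPM in tunicamycin leaves at 2 h, and 0.402 and 0.537 CPM in control and 16.2 and 0.956 CPM in tunicamycin leaves at 6 h. The deeper tunicamycin library at 6 h stood far above the rest, the shallower one lying inside the range of the other groups. The difference was 4.93 ± 1.41 (SE; 95% interval 1.86 to 7.99), with 5.17 in the deeper and 2.96 in the shallower libraries, and without tunicamycin 6 h replicate 1, the deeper library, it was 1.84. The isomerase-like 5-4 gene (LOC101254614), a membrane-anchored form, had 23.6 and 20.003 CPM in control and 12.5 and 16.7 CPM in tunicamycin leaves at 2 h, and 22.1 and 24.6 CPM in control and 24.4 and 32.8 CPM in tunicamycin leaves at 6 h. Its tunicamycin libraries were below control at 2 h and overlapped it at 6 h, with a difference of 0.87 ± 0.44 (SE; 95% interval -0.08 to 1.82).

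The N-glycosylation and dolichol pathway, whose first enzyme tunicamycin blocks, had 33 of 35 genes tested, 22 above 0, and a median of 0.15, which was 0.01 without tunicamycin 2 h replicate 2 and 0.34 with the other tunicamycin 2 h library left out. Glucosidase GCS1 (LOC101267114), which trims the first glucose from the transferred sugar chain, had 12.6 and 9.78 CPM in control and 7.65 and 4.18 CPM in tunicamycin leaves at 2 h, and 10.3 and 11.7 CPM in control and 13.7 and 13.2 CPM in tunicamycin leaves at 6 h. Its 2 lowest values were those of tunicamycin leaves at 2 h, and at 6 h both tunicamycin libraries lay above both control libraries. Its difference was 1.16 ± 0.53 (SE; 95% interval 0.02 to 2.29), with an unadjusted p of 0.0468. The homolog of mannose-P-dolichol utilization defect 1 (LOC101260321), a protein needed for use of dolichol-linked mannose, had a difference of 0.96 ± 0.46 (SE; 95% interval -0.03 to 1.95) and 1.07 in the deeper and 0.85 in the shallower libraries.

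ER-associated degradation, the removal of misfolded proteins to the proteasome, had 14 of 15 genes tested, 8 above 0, and a median of 0.14, which without tunicamycin 6 h replicate 2 was -0.17 and kept its sign with 5 of the 8 libraries left out in turn. The ER-anchored E3 ligase RMA1H1 (LOC101262152) had 48.8 and 32.7 CPM in control and 209 and 145 CPM in tunicamycin leaves at 2 h, and 35.4 and 38.2 CPM in control and 44.03 and 94.8 CPM in tunicamycin leaves at 6 h. It was above control at both times, with effects of 2.13 at 2 h and 0.91 at 6 h. The difference was -1.21 ± 0.57 (SE; 95% interval -2.42 to -0.00), of which the deeper libraries gave -2.47 and the shallower -0.15. A second gene of the same description (LOC101262459), at no more than 4.14 CPM in any library, had a difference of 1.40 ± 0.87 (SE, 95% interval -0.45 to 3.26). In secretion, 37 translocon and signal peptide genes had a median of 0.08 and 47 genes of the COPI and COPII coats and cargo receptors one of 0.09, and without tunicamycin 6 h replicate 2 these were -0.17 and -0.05. An ER retention receptor gene (LOC101252298) had 18.3 and 10.4 CPM in control and 15.1 and 12.2 CPM in tunicamycin leaves at 2 h, and 9.16 and 4.64 CPM in control and 18.6 and 10.2 CPM in tunicamycin leaves at 6 h, with a difference of 1.13 ± 0.61 (SE; 95% interval -0.18 to 2.44).

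The list of sensors and factors of the unfolded protein response also held BAG family chaperone regulators, and its members did not share a direction. Of 33 genes 19 were tested, 7 had a difference above 0, and the median was -0.20. The 2 IRE1 genes had -0.10 ± 0.57 (SE; 95% interval -1.33 to 1.13) (LOC101262583) and -0.44 ± 0.55 (SE; 95% interval -1.63 to 0.74) (LOC101263702). The bZIP60 gene (LOC101245758) was measured at 99.1 and 115 CPM in control and 97.3 and 128 CPM in tunicamycin leaves at 2 h, and 162 and 103 CPM in control and 116 and 127 CPM in tunicamycin leaves at 6 h. Its total level overlapped between groups at each time, and its difference was -0.20 ± 0.51 (SE; 95% interval -1.28 to 0.88); the splicing of its mRNA by IRE1 is not visible in counts of whole transcripts. For bZIP17 (LOC101263260) the difference was -0.44 ± 0.46 (SE; 95% interval -1.42 to 0.54). The member with the smallest p was a BAG family chaperone regulator (LOC101256235), a co-chaperone of Hsp70, with 8.75 and 13.1 CPM in control and 4.37 and 1.61 CPM in tunicamycin leaves at 2 h, and 6.44 and 1.74 CPM in control and 5.43 and 6.28 CPM in tunicamycin leaves at 6 h. At 2 h it lay below control, and at 6 h it overlapped control, with a difference of 2.34 ± 0.84 (SE; 95% interval 0.54 to 4.13).

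Heat shock proteins and factors of the cytosol and organelles had a median below 0. Of 84 heat shock proteins and factors 75 were tested, 19 were above 0, and the median was -0.23, with -0.41 in the deeper and -0.16 in the shallower libraries. An unadjusted p under 0.05 was found for 6 members (8%) below 0 and 1 above 0, beside 1.43% and 1.44% of all genes. Hsc70.3, a cytosolic Hsp70, had 53.7 and 45.5 CPM in control and 61.1 and 95.2 CPM in tunicamycin leaves at 2 h, and 11.4 and 9.97 CPM in control and 6.57 and 3.004 CPM in tunicamycin leaves at 6 h. Every 6 h library was far under every 2 h library, and its level fell by 2.22 in control leaves (adjusted p = 0.0227) and by 3.98 in tunicamycin leaves (adjusted p = 3.80e-04). The difference was -1.77 ± 0.53 (SE; 95% interval -2.91 to -0.63), with -1.02 in the deeper and -2.73 in the shallower libraries. The heat shock 70 kDa protein 8 gene (LOC101255240) had 10.98 and 9.67 CPM in control and 26.3 and 47.1 CPM in tunicamycin leaves at 2 h, and 3.22 and 2.03 CPM in control and 3.59 and 2.05 CPM in tunicamycin leaves at 6 h, in the same order, and a difference of -1.66 ± 0.58 (SE; 95% interval -2.900 to -0.41).

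Of the 27 autophagy genes, which build the membrane that carries cell contents to the vacuole, all were tested and 5 (18.5%) had a difference above 0, with a median of -0.48. The median effect was 0.53 at 2 h and 0.16 at 6 h. The deeper libraries gave a median of -0.94 and the shallower -0.17. Their summed level was 548 and 449.8 CPM in control and 701 and 749 CPM in tunicamycin leaves at 2 h, against 359 and 624 CPM in control and 543 and 531 CPM in tunicamycin leaves at 6 h. The control libraries at 6 h thus stood on either side of the tunicamycin libraries, and without control 6 h replicate 2 the median was -0.03. Autophagy-related protein 18f (LOC101259351) had 9.76 and 12.1 CPM in control and 28.9 and 33.3 CPM in tunicamycin leaves at 2 h, and 9.71 and 25.7 CPM in control and 26.7 and 16.9 CPM in tunicamycin leaves at 6 h, with a difference of -1.19 ± 0.59 (SE; 95% interval -2.44 to 0.06).

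Proteasome and ribosome genes lay narrowly above 0. Of 43 proteasome subunits tested 38 had a difference above 0, with a median of 0.22, and of 215 cytosolic ribosomal proteins 178 (82.8%), with a median of 0.27. No gene of either list was called, and 0 members of each had an unadjusted p under 0.05. Their medians moved with single libraries, from -0.03 (without tunicamycin 6 h replicate 2) to 0.49 (leaving out control 6 h replicate 1) for the proteasome and from -0.09 (leaving out control 6 h replicate 2) to 0.80 (leaving out the other control 6 h library) for the ribosome. A 26S proteasome regulatory subunit (LOC101245654) had a difference of 0.70 ± 0.50 (SE; 95% interval -0.36 to 1.77), and ribosomal protein L3-2 (LOC101266871) one of 0.82 ± 0.45 (SE; 95% interval -0.13 to 1.78). The ribosomal member with the smallest p, a ubiquitin-60S ribosomal protein L40-like gene (LOC101247925), went the other way, with -2.15 ± 1.02 (SE, 95% interval -4.33 to 0.03).

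Jasmonate genes included 3 called lower in tunicamycin leaves at 2 h, where 11 genes (0.0543%) of all 20272 were called. The differences of those 3 between the times ran from -0.30 to 1.92, within a range of -3.35 to 2.18 for the list. Jasmonate is the wound hormone, made from chloroplast lipids by allene oxide synthase and allene oxide cyclase, and held in check by JAZ proteins. Of 54 genes 42 were tested, 31 (73.8%) had a difference above 0, and the median was 0.27, with 0.57 in the deeper and 0.19 in the shallower libraries. An unadjusted p under 0.05 was found for 3 above 0 (7.14%) and 1 below, beside 1.44% and 1.43% of all genes. Allene oxide cyclase (AOC) had 60.2 and 80.8 CPM in control and 10.9 and 10.6 CPM in tunicamycin leaves at 2 h, and 53.9 and 27.9 CPM in control and 14.6 and 32.8 CPM in tunicamycin leaves at 6 h. It was called lower in tunicamycin leaves at 2 h, by 2.71 on the log2 scale (adjusted p = 0.0423), and at 6 h the tunicamycin libraries overlapped control. The difference was 1.92 ± 0.59 (SE; 95% interval 0.67 to 3.17), and the subsets were nearly alike at 1.95 and 1.79.

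Allene oxide synthase (aos), one step earlier, had 38.2 and 58.4 CPM in control and 1.67 and 3.22 CPM in tunicamycin leaves at 2 h, and 28.02 and 17.5 CPM in control and 2.19 and 2.46 CPM in tunicamycin leaves at 6 h. It was called lower at both times, by 4.44 at 2 h (adjusted p = 0.00241) and by 3.298 at 6 h (adjusted p = 0.00992). Its difference was 1.14 ± 0.56 (SE; 95% interval -0.06 to 2.35), of which the shallower libraries gave 0.07. The repressor gene JAZ2 was also called lower at both times and had a difference of -0.30 ± 0.50 (SE; 95% interval -1.36 to 0.77). TIFY 6B (LOC101244360), another gene of the repressor family, had 38.7 and 27.7 CPM in control and 8.83 and 16.4 CPM in tunicamycin leaves at 2 h, and 14.99 and 4.36 CPM in control and 15.6 and 16.8 CPM in tunicamycin leaves at 6 h. It was below both control libraries at 2 h and above both at 6 h, with a difference of 2.18 ± 0.70 (SE; 95% interval 0.67 to 3.69). The tested genes of the list ran from -3.35 to 2.18, and JAZ2 was at 0.11 without control 2 h replicate 1.

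Anti-herbivore wound proteins, downstream of jasmonate, had the lowest list median, -0.79 over 47 genes, 17 of them above 0. The subsets disagreed in sign, with -1.21 in the deeper and 0.54 in the shallower libraries. Without tunicamycin 2 h replicate 1 the median was 0.79, and with any other single library left out it stayed below 0. Wound-induced protein 1 (LOC101260261) had 1.22 and 1.23 CPM in control and 35.5 and 11.3 CPM in tunicamycin leaves at 2 h, and 3.17 and 3.23 CPM in control and 11.2 and 23.9 CPM in tunicamycin leaves at 6 h. It was higher in tunicamycin leaves at 2 h by 4.28 (adjusted p = 0.0307) and had an effect of 2.44 at 6 h. The difference was -1.83 ± 0.74 (SE; 95% interval -3.41 to -0.25), with -3.02 in the deeper and -0.26 in the shallower libraries.

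Ethylene, abscisic acid and gibberellin genes included members with low levels in tunicamycin leaves at 6 h. In the ethylene list, which holds synthesis enzymes, receptors and ERF factors, 121 of 177 genes were tested and 43 were above 0, with a median of -0.27; 8 genes (6.61%) below 0 had an unadjusted p under 0.05, and 0 above 0, beside 1.43% and 1.44% of all genes. Without tunicamycin 2 h replicate 1 the median was 0.21. The factor ERF109-like (LOC101251748) had 0 and 3 counts in control leaves and 50 and 10 in tunicamycin leaves at 2 h. At 6 h it had 4 and 285 counts in control leaves and 36 and 2 in tunicamycin leaves. Scaled for library depth, these were 0 and 0.0634 CPM in control and 1.10 and 1.61 CPM in tunicamycin leaves at 2 h. They were 0.201 and 2.25 CPM in control and 0.353 and 0.137 CPM in tunicamycin leaves at 6 h. With so few counts at 2 h and control libraries so far apart at 6 h, no fold is given. The ERF13-like factor (LOC101249870) had 10 and 206 counts in control and 26 and 2 in tunicamycin leaves at 2 h. Scaled for library depth, these were 2.03 and 4.35 CPM in control and 0.571 and 0.322 CPM in tunicamycin leaves. At 6 h it had 30 and 396 counts in control leaves, or 1.51 and 3.13 CPM. Both tunicamycin libraries had 0 at 6 h, where it was called lower (adjusted p = 0.0126). The lea-like gene ER5, an ethylene-responsive late embryogenesis protein of drying tissues, had 80.97 and 97.9 CPM in control and 37.5 and 34.2 CPM in tunicamycin leaves at 2 h, and 38.1 and 98.4 CPM in control and 10.05 and 8.06 CPM in tunicamycin leaves at 6 h. It was below control at both times, called at 6 h (-2.91, adjusted p = 0.0114), and its difference was -1.59 ± 0.56 (SE; 95% interval -2.79 to -0.39).

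Of 44 abscisic acid and dehydration genes 15 had a difference above 0, with a median of -0.28, which without control 6 h replicate 2 was 0.10. The desiccation-related gene LOC101268052 had 41.1 and 28.8 CPM in control and 40.1 and 26.7 CPM in tunicamycin leaves at 2 h, and 29.7 and 20.8 CPM in control and 12.2 and 6.28 CPM in tunicamycin leaves at 6 h, with a difference of -1.38 ± 0.53 (SE; 95% interval -2.52 to -0.24). GA2ox3, an enzyme that inactivates gibberellin, had 20.95 and 27.99 CPM in control and 6.09 and 4.82 CPM in tunicamycin leaves at 2 h, and 11.02 and 18.6 CPM in control and 1.302 and 0.956 CPM in tunicamycin leaves at 6 h. GA2ox3 stood below control at both times and was called at 6 h (-3.67, adjusted p = 0.00992). Its difference was -1.52 ± 0.55 (SE; 95% interval -2.69 to -0.34), with -1.598 in the deeper and -1.36 in the shallower libraries. The 32 gibberellin genes as a list had a median of 0.58, 22 of them above 0, which without control 6 h replicate 2 was 0.08. The 119 auxin response genes had a median of 0.09, 64 of them above 0.

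A list of carbon starvation and branched-chain amino acid breakdown genes was added after the values above had been seen, because malate synthase and GAT1_2.1 were among the genes named for a difference below 0, so its counts are a description and support nothing. These genes are known in Arabidopsis for being switched on when leaves run short of sugar. Of 61 genes 50 were tested, 16 (32.0%) had a difference above 0, and the median was -0.46, with -0.61 and -0.32 in the deeper and shallower libraries. The median effects were 0.44 at 2 h and -0.21 at 6 h. In 12 members (24%) the 4 differences at 6 h lay below all 4 at 2 h, and in 0 members above, beside 4.84% and 5.77% of all genes. Leaving out each library in turn gave medians from -1.07 when control 2 h replicate 2 was left out to -0.13 when it was control 6 h replicate 2.

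Its members showed 2 separate features in the libraries. The seed imbibition alpha-galactosidase SIP, which frees sugars from raffinose, had 48.4 and 111 CPM in control and 338 and 219 CPM in tunicamycin leaves at 2 h, and 35.4 and 157 CPM in control and 57.8 and 64.997 CPM in tunicamycin leaves at 6 h. Tunicamycin libraries were the highest at 2 h, and control 6 h replicate 2 was the highest at 6 h, several times above control 6 h replicate 1. The branched-chain aminotransferase 2 gene (LOC101254608), which starts the breakdown of leucine, isoleucine and valine, had 14.6 and 8.28 CPM in control and 61.9 and 24.6 CPM in tunicamycin leaves at 2 h, and 13.2 and 77.9 CPM in control and 27.01 and 19.8 CPM in tunicamycin leaves at 6 h, in the same order. Its difference of -2.93 ± 1.102 (SE; 95% interval -5.47 to -0.40) was -4.42 in the deeper and -0.17 in the shallower libraries. Glutamate dehydrogenase (gdh1), which releases ammonium from glutamate, had 34.2 and 43.7 CPM in control and 89.5 and 75.1 CPM in tunicamycin leaves at 2 h, and 35.3 and 98.1 CPM in control and 57.8 and 44.99 CPM in tunicamycin leaves at 6 h, with a difference of -1.45 ± 0.59 (SE; 95% interval -2.71 to -0.20).

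The other named members repeated this order in part. The lipoamide acyltransferase of branched-chain oxo acid breakdown (LOC101258692) had 24.005 and 32.2 CPM in control and 112 and 59.2 CPM in tunicamycin leaves at 2 h, and 18.01 and 52.99 CPM in control and 28.4 and 20.2 CPM in tunicamycin leaves at 6 h, with a difference of -2.15 ± 0.66 (SE; 95% interval -3.58 to -0.73). Proline dehydrogenase 2 (LOC101268445), which oxidises proline in mitochondria, had 12.6 and 10.5 CPM in control and 32.7 and 14.5 CPM in tunicamycin leaves at 2 h, and 6.44 and 21.5 CPM in control and 5.42 and 6.08 CPM in tunicamycin leaves at 6 h, with a difference of -2.36 ± 0.72 (SE; 95% interval -3.92 to -0.80). The asparaginase gene LOC101245157, which frees ammonium from asparagine, had 2.85 and 5.13 CPM in control and 23.2 and 10.9 CPM in tunicamycin leaves at 2 h, and 3.77 and 16.6 CPM in control and 6.46 and 5.598 CPM in tunicamycin leaves at 6 h, with a difference of -2.82 ± 0.85 (SE; 95% interval -4.64 to -0.99). In all 3 the deeper control library at 6 h was above the shallower one, and for proline dehydrogenase 2 the shallower subset gave -0.28. The summed level of the list was 2482 and 4258 CPM in control and 6338 and 5189 CPM in tunicamycin leaves at 2 h. At 6 h it was 3472 and 5238 CPM in control and 3928 and 3564 CPM in tunicamycin leaves, so the groups stood apart at 2 h and overlapped at 6 h.

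Among transcription factor families, 68 bHLH genes had a median of 0.29, 47 of them (69.1%) above 0, and 6 of them (8.82%) had an unadjusted p under 0.05 above 0 and 0 below, beside 1.44% and 1.43% of all genes. Both subsets gave a median above 0, 0.15 and 0.75, and it ranged from 0.21 to 0.74 with each library left out. The 39 NAC factors had a median of -0.31, 11 above 0, and both subsets below 0, but without tunicamycin 2 h replicate 1 the median was 0.15. NACMTF3, named as a membrane-bound NAC factor, had 56.96 and 113 CPM in control and 48.6 and 48.1 CPM in tunicamycin leaves at 2 h, and 126 and 100.5 CPM in control and 24.7 and 28.9 CPM in tunicamycin leaves at 6 h. It was below control at both times and called at 6 h (-2.08, adjusted p = 0.0343), with a difference of -1.26 ± 0.51 (SE; 95% interval -2.36 to -0.17). The 56 WRKY factors, regulators of defence, had a median of -0.30, which without tunicamycin 2 h replicate 1 was 0.10. WRKYIId-4 had 72.4 and 68.9 CPM in control and 101 and 64.2 CPM in tunicamycin leaves at 2 h, and 114 and 87.97 CPM in control and 60.5 and 51.2 CPM in tunicamycin leaves at 6 h, with a difference of -1.08 ± 0.48 (SE; 95% interval -2.12 to -0.05).

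Calcium and clock genes had medians near 0, -0.11 over 156 and -0.09 over 27 genes. The cation/calcium exchanger 1-like gene (LOC101250521), of a family of membrane transporters, had 14.6 and 13.1 CPM in control and 25.5 and 20.3 CPM in tunicamycin leaves at 2 h, and 11.6 and 6.802 CPM in control and 37.1 and 39.5 CPM in tunicamycin leaves at 6 h. Its tunicamycin libraries were above control at both times, called at 6 h (2.07, adjusted p = 0.0185), and its difference was 1.33 ± 0.47 (SE; 95% interval 0.32 to 2.34). A CBL-interacting protein kinase (LOC101258074), of calcium-sensor kinases, had 13.8 and 8.24 CPM in control and 12.4 and 6.59 CPM in tunicamycin leaves at 2 h, and 2.82 and 2.62 CPM in control and 7.85 and 11.6 CPM in tunicamycin leaves at 6 h. At 6 h its tunicamycin libraries were above control, and the difference was 1.996 ± 0.62 (SE; 95% interval 0.68 to 3.31). REVEILLE 7 (LOC101255972), a morning MYB factor related to LHY, had 30.5 and 17.4 CPM in control and 45.6 and 60.5 CPM in tunicamycin leaves at 2 h, and 0.906 and 0.995 CPM in control and 1.08 and 0.819 CPM in tunicamycin leaves at 6 h. Its level fell by 4.62 in control leaves (adjusted p = 1.58e-04) and by 5.75 in tunicamycin leaves (adjusted p = 4.57e-05), and the difference of the tunicamycin effect was -1.13 ± 0.52 (SE; 95% interval -2.25 to -0.01). The response regulator-like gene APRR2 (LOC101245957), which entered the clock list by the words of its description, had 1.04 ± 0.55 (SE; 95% interval -0.13 to 2.22).

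In the cell wall list 188 genes were tested, 103 were above 0, and the median was 0.08. An unadjusted p under 0.05 was found for 12 above 0 (6.38%) and 3 below, beside 1.44% and 1.43% of all genes. Pectinesterase 53 (LOC101260795), which removes methyl groups from pectin, had 3.66 and 1.54 CPM in control and 0.703 and 0.643 CPM in tunicamycin leaves at 2 h, and 1.91 and 0.774 CPM in control and 5.37 and 4.37 CPM in tunicamycin leaves at 6 h. Every pair of libraries put it below control at 2 h and above control at 6 h, and the difference was 3.74 ± 0.98 (SE; 95% interval 1.64 to 5.84), with 3.81 in the deeper and 3.61 in the shallower libraries. The list's median was 0.62 in the deeper and -0.08 in the shallower libraries. Antioxidant enzymes and glutathione S-transferases had medians of 0.01 and 0.06. Ascorbate peroxidase 5 (LOC101264583), a peroxide scavenger, had -1.32 ± 0.59 (SE; 95% interval -2.58 to -0.06), and the transferase LOC100134894 had -1.58 ± 0.57 (SE; 95% interval -2.78 to -0.37).

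The list medians moved with single libraries. Of the 33 lists, 11 kept the sign of their median with each library left out in turn, 22 changed sign with at least 1 library left out, and 0 stayed within 1.5 times of the median from all 8 libraries. Heat shock proteins and factors kept their sign. Their lowest median was -0.37, when control 2 h replicate 1 was left out. Their highest was -0.10, when it was control 6 h replicate 2. Jasmonate genes kept theirs too. Their median was 0.08 when control 2 h replicate 2 was left out and 0.49 when it was tunicamycin 2 h replicate 1. The list of unfolded protein response sensors and factors, BAG genes included, had a median of -0.33 when tunicamycin 6 h replicate 1 was left out. That median was -0.04 when control 6 h replicate 1 was left out. Auxin response genes changed sign. Their median was -0.07 when tunicamycin 6 h replicate 1 was left out and 0.68 when it was tunicamycin 2 h replicate 1. Cell wall genes changed sign as well. Theirs was -0.15 when control 2 h replicate 2 was left out and 0.497 when it was control 6 h replicate 1. The median of all genes tested moved from -0.06 without tunicamycin 6 h replicate 2 to 0.12 without tunicamycin 2 h replicate 1.

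**Figure D4:**
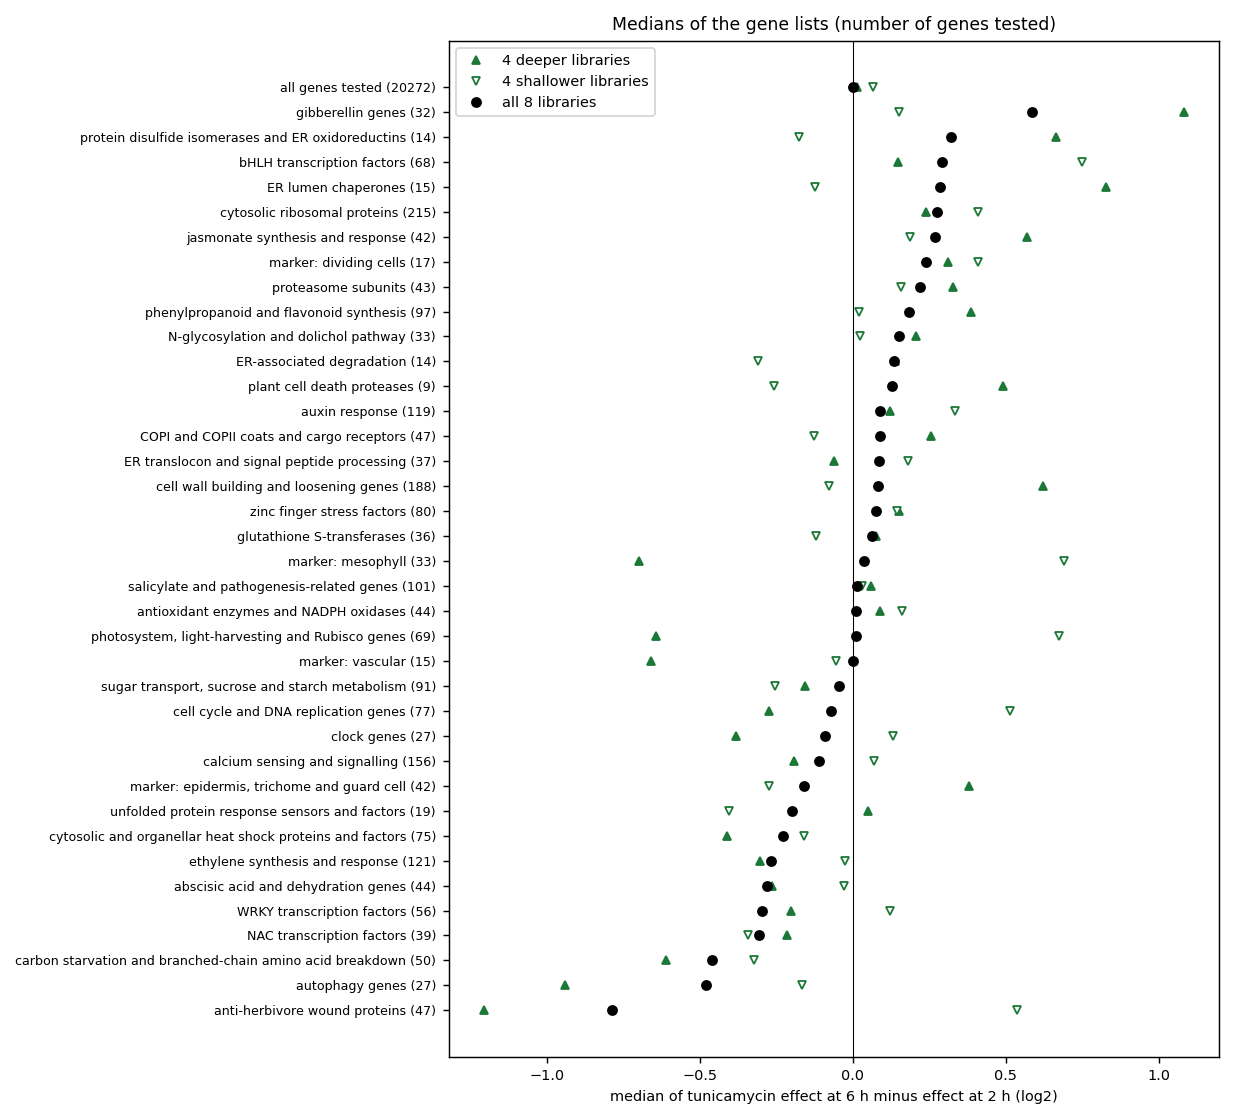
Median of the tunicamycin effect at 6 h minus that at 2 h (log2) for each gene list, with the number of genes tested in brackets, in all 8 libraries (points) and in the 4 deeper and 4 shallower libraries (triangles). The medians lie between -0.79 and 0.58, and for many lists the 2 subsets fall on opposite sides of 0, as for the 69 photosystem, light-harvesting and Rubisco genes at -0.64 and 0.67.

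Marker genes of leaf cell types were set beside these lists. The 33 mesophyll markers tested of 38 had a median difference of 0.04, but -0.70 in the deeper and 0.69 in the shallower libraries. Their summed level ran from 29130 to 42518 CPM at 2 h and from 22101 to 46904 CPM at 6 h, both ends of the latter being the tunicamycin libraries. The Rubisco small subunit gene RBCS4 stood between 7460 and 14635 CPM, the Rubisco of leaf tissue being present in every library. Of vascular, epidermal and dividing-cell markers 15 of 21, 42 of 75 and 17 of 19 were tested, with medians of -0.00, -0.16 and 0.24. The sums of the vascular markers ran from 105 to 309 CPM, of the epidermal from 388 to 694 CPM and of the dividing-cell markers from 102 to 228 CPM. At 0 in all libraries were 2, 4, 17 and 1 of the mesophyll, vascular, epidermal and dividing-cell markers on the table. In bulk leaf RNA fewer cells of a type and less RNA per cell cannot be told apart, and the part of cell composition in the differences was not tested.

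Across all 15433 expressed genes the 2 subsets of the libraries gave little common order. Pearson's r across genes between the difference in the deeper and in the shallower libraries was -0.08, against 0.23 for the effect at 2 h and 0.10 for that at 6 h; genes are not independent replicates, and the values are a description. The difference had the same sign in both subsets in 44.8% of genes. Its standard deviation across genes was 0.90 in the deeper and 0.96 in the shallower libraries. In 295 genes both subsets were above 1 and in 189 both were below -1, and the 24 named genes came from the region where the signs match, by the rule that chose them.

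**Figure D5:**
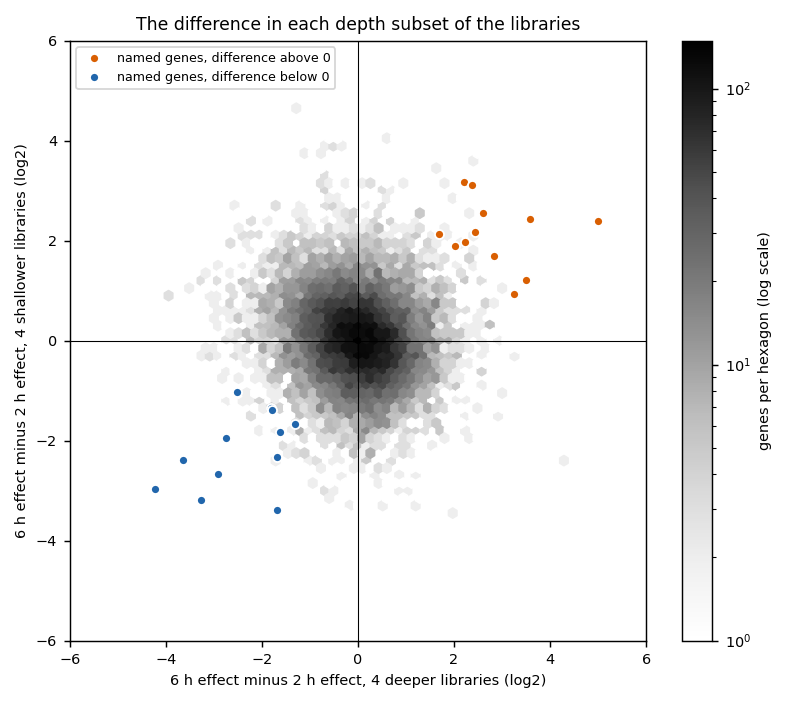
Tunicamycin effect at 6 h minus that at 2 h (log2) in the 4 deeper libraries (horizontal axis) and the 4 shallower libraries (vertical axis) for 15433 genes with a mean log2 CPM of 1 or more, as counts per hexagon on a log scale; 17 genes lie beyond the range of -6 to 6. The cloud shows no rising trend (r = -0.08), and the coloured points are the 24 genes named by a rule that required the same sign in both subsets.

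In the authors' deposited tables for 2 h and 6 h, whose test is not given in the sources used here, the log2 fold changes of LBD40 (LOC101257056) were -0.96 and 1.304, those of AOC -2.71 and -0.80, and those of 11-beta-hydroxysteroid dehydrogenase 1B (LOC101264635) 0.33 and -3.45. The authors' deposited tables hold no comparison of the effect between the times.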

How the data were processed

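Leaf RNA of 8 libraries was sequenced by the authors. The deposited count table holds raw counts per RefSeq transcript, and the deposited comparison tables hold log2 fold changes and log2 CPM, an F score and p-values, per the file headers; the submitters' processing notes name Trimmomatic 0.40, and the sources used here do not give aligner, counter, build or strand use. Counts were fitted with edgeR 4.0.16 in R 4.3.3 (filterByExpr, minimum count 10 and total 15, TMM scaling, robust quasi-likelihood, 1 mean per group, 4 residual degrees of freedom). Variances were drawn towards those of other transcripts, with a median of 10.6 prior degrees of freedom. The difference of effects was a contrast, tested two-sided with Benjamini-Hochberg adjustment over 34483 transcripts. DESeq2 1.42.0 and limma 3.58.1 served as alternatives, with other scalings, filters, transcript choices, terms and each library left out. Errors are standard errors, the log2 value divided by the square root of F; intervals are 95%. CPM are TMM-scaled, and values within the deeper and shallower libraries use log2 CPM with a prior count of 2. Variants of a gene share reads: the second transcript's total was at the median 0.961 of the first. The symbol came from the bracket of the description, since the symbol column differed from it in 457 rows, and 91.1% of symbols were found in a RefSeq gene table; 1 fold-change cell of the authors could not be read. The procedure was tested on simulated data.

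Genes were named by rule: in each direction the 12 with the smallest p that had a description, a mean log2 CPM of 1 or more and the same sign in both depth subsets, and from each list the 2 with the smallest p, some of which are left out. ER chaperones, sensors, aos and JAZ2 were added for their role, and 8 starvation genes after their values were seen. The members and all lists, matched by words in the descriptions, were chosen with earlier results of these data known, and patterns were narrowed after the files were read. List members with a group at 0 in both libraries were also set to 3 counts over that group, which moved list medians by at most 0.107.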

Additional observations from a re-analysis of the deposited data

How the results depend on the processing

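The count of 0 called genes stayed 0 under RLE and upper-quartile scaling, a filter of at least 10 counts in every library, DESeq2, limma-voom, no robust option, 1 transcript per gene, summed transcripts and a depth term. It was 79 without a low-count filter (34 above 0, 45 below 0). Those 79 genes were also tested with the filter, and they include genes present mainly in 1 library. They also hold 8 of the 12 genes named for a difference above 0 and 6 of the 12 named for one below 0. With the replicate block and depth term together the count was 1, the glutathione transferase GST 23-like gene LOC101257702. With 1 library left out it ranged from 0 to 33: 33 without control 6 h replicate 1 (18 above 0, 15 below 0), 1 without tunicamycin 2 h replicate 2, and 0 without each of the others; a lone library was then assumed to vary like the other groups. The cause of these counts was not tested.

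The replicate block alone gave 0 called genes and 509 at an unadjusted p under 0.05, against 580. The correlation of same-numbered deviations ran from -0.30 to 0.19 over the 6 pairs of groups. As replicate 1 was the shallower library in control and the deeper in tunicamycin groups, depth and pairing cannot be told apart in these values.

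Of 1611 values for 81 named genes under the alternatives, 1563 kept their direction and stayed uncalled, 32 became called (21 without a low-count filter, 11 without control 6 h replicate 1) and 16 changed sign. None of the 24 genes named by their p changed sign. They were picked for a small p and the same sign in both depth subsets, so this is no separate support. CNX61.0 was -2.54e-04 under RLE and -3.29e-05 under DESeq2, and the IRE1 gene LOC101262583 was 0.0389 under limma-voom. With 1 library left out CNX61.0 ranged from -0.38 to 0.61, P58IPK from -0.11 to 0.56, the SDF2-like gene from -0.23 to 0.15, endoplasmin from -0.15 to 0.94, LOC101262583 from -0.60 to 0.77, bZIP60 from -0.49 to 0.19 and JAZ2 from -0.85 to 0.11. With 2 libraries in a group, depths that differ 5.49 to 9.98 times and a median standard error of 0.616, no difference of any size was called, the 1453 estimates beyond 1 on the log2 scale included.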

Other observations

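Genes of division, defence and sugar use not described above held single members with small unadjusted p. The 77 cell cycle and DNA replication genes had a median difference of -0.07, with -0.27 in the deeper and 0.51 in the shallower libraries. The cyclin-D6-1 gene (LOC101265894), of cyclins that start division, had 5.29 and 2.58 CPM in control and 1.01 and 1.29 CPM in tunicamycin leaves at 2 h, and 1.96 and 1.896 CPM in control and 3.83 and 2.73 CPM in tunicamycin leaves at 6 h. It was below control at 2 h and above control at 6 h in every pair of libraries, with a difference of 2.53 ± 0.86 (SE; 95% interval 0.70 to 4.37). Histone H1, a linker of nucleosomes, had 308 and 269 CPM in control and 255 and 192 CPM in tunicamycin leaves at 2 h, and 465 and 303 CPM in control and 628 and 941 CPM in tunicamycin leaves at 6 h. Its 6 h tunicamycin libraries were the highest of the 8, and the difference was 1.399 ± 0.59 (SE; 95% interval 0.14 to 2.65).

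Phenylpropanoid genes had a median of 0.18 over 97 genes. Trans-cinnamate 4-monooxygenase (LOC101244196), which hydroxylates cinnamate, had 3.66 and 7.43 CPM in control and 1.14 and 0.322 CPM in tunicamycin leaves at 2 h, and 8.804 and 3.05 CPM in control and 4.79 and 4.85 CPM in tunicamycin leaves at 6 h. It was low in both tunicamycin libraries at 2 h and within the control range at 6 h, with a difference of 2.44 ± 0.88 (SE; 95% interval 0.56 to 4.33). The salicylate and pathogenesis-related list had a median of 0.01 over 101 genes, and a glucan endo-1,3-beta-glucosidase gene (LOC101263456) had 10.2 and 10.3 CPM in control and 3.82 and 2.25 CPM in tunicamycin leaves at 2 h, and 11.4 and 6.699 CPM in control and 7.85 and 12.8 CPM in tunicamycin leaves at 6 h, with a difference of 1.89 ± 0.61 (SE; 95% interval 0.58 to 3.197). In sugar metabolism the median was -0.04 over 91 genes. The hexose transporter ht1 had 60.01 and 102 CPM in control and 241 and 159 CPM in tunicamycin leaves at 2 h, and 41.7 and 76.1 CPM in control and 60.6 and 34.3 CPM in tunicamycin leaves at 6 h. It was above control at 2 h in every pair of libraries and below or within the control range at 6 h, with a difference of -1.61 ± 0.60 (SE; 95% interval -2.900 to -0.32) and -1.57 in the deeper and -1.68 in the shallower libraries. Sucrose-phosphate synthase B (LOC101055573), an enzyme of sucrose synthesis, had a difference of -1.41 ± 0.61 (SE; 95% interval -2.703 to -0.12), carbonic anhydrase 2 (LOC543802) one of -1.72 ± 0.61 (SE; 95% interval -3.02 to -0.41), and a lipid-transfer protein (LOC101244718) one of 1.15 ± 0.49 (SE; 95% interval 0.11 to 2.19).

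Among 13106 genes with a summed CPM of at least 40 over the 8 libraries, 3 had at least 80% of that sum in 1 library. The glutathione transferase GST 23-like gene LOC101257702 stood at 151 CPM in tunicamycin 2 h replicate 1 and at 5.15 CPM in replicate 2, against at most 0.296 CPM in the other 6 libraries, and 96.4% of its sum lay in the first. The uncharacterized gene LOC101246954 had 82.7% of its sum in the same library, at 53.1 CPM. The 5S ribosomal RNA row LOC112940756 had 320.5 CPM, 80.1% of its sum, in tunicamycin 6 h replicate 2, the library with the highest share of ribosomal RNA rows.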
